A study of Mus musculus with 8 samples.

Results

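Albumin (Alb) and alpha-fetoprotein (Afp) are neighbouring genes that code for the main carrier proteins of adult and of fetal blood plasma, and both are made mainly by hepatocytes. They were followed as 2 genes of the 17097 that the array table names, over all 6 of their probe sets: 1 for Alb and 5 for Afp, among 28898 probe sets that carry a single gene symbol. Both genes were chosen by their measured levels on these 8 arrays, so those levels are described here and no test is given for them. The values are log2 signals of 8 Affymetrix mouse expression arrays, which the submitters had normalised by RMA (robust multi-array averaging).

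The study asked how close mouse embryonic fibroblasts come to hepatocytes when they are given liver factors by retrovirus. The induced hepatocyte-like (iHep) lines had 1 array each. The 4a3CK line was made with Hnf4a, Foxa3, c-Myc and Klf4, and the 4a1CK line with Hnf4a, Foxa1, c-Myc and Klf4; their epithelial colonies came up within 5 days. The 4a3 line was made with Hnf4a and Foxa3 alone, and its colonies came up within 2 weeks. All of the lines were taken at passage 10, on collagen-coated dishes in a hepatocyte medium with dexamethasone, nicotinamide, insulin-transferrin-selenium, FGF4, HGF and EGF. Primary hepatocytes (PH, 3 arrays) came from collagenase-perfused livers of male C57/B6 mice aged 8 to 10 weeks and were cultured in the same kind of medium. Mouse embryonic fibroblasts (MEF, 2 arrays) came from C57/B6 embryos of day 13.5; for MEF 1 the labels state that head and internal organs had been taken out. Each line stands for its factor set by a single array, so a difference between lines has no replicate check. The labels do not say that arrays of 1 group came from separate animals or cultures, so the spread between hepatocyte or fibroblast arrays may be technical. Each p-value of the main fit rests on 1 spread shared by all groups. That spread includes the differences between the lines and their factor sets, also where hepatocytes are compared with fibroblasts.

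In the fetal liver and the yolk sac Afp is among the most active genes, and it is switched off in the liver after birth, while Alb goes up through fetal life and stays on. Both promoters are driven by liver-enriched transcription factors: C/EBP proteins close to the start and, through nearby and distant enhancers, FOXA proteins, HNF4A and others. In mice the postnatal silencing of Afp needs the repressors ZBTB20 and ZHX2. Albumin and alpha-fetoprotein belong to a family that also holds afamin (Afm), a vitamin E carrier, and the vitamin D-binding protein.

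The promoters are shown because several of the factors described further on are known to act through the promoters or enhancers of Alb and Afp. Alb, Afp and Afm lie one after the other on mouse chromosome 5, all on the forward strand. The 250 bases before each RefSeq start (GRCm38.p6) are given 5′ to 3′, with matches to the C/EBP-type motif TTGCNNAA and the FOXA-type motif TGTTTNC in capitals on either strand.
Alb, chr5:90460620-90460869, +: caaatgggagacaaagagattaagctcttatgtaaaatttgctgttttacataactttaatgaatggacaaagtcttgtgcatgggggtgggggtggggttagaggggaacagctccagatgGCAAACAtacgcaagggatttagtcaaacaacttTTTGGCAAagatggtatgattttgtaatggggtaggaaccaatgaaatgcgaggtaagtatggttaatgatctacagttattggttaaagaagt
Afp, chr5:90490464-90490713, +: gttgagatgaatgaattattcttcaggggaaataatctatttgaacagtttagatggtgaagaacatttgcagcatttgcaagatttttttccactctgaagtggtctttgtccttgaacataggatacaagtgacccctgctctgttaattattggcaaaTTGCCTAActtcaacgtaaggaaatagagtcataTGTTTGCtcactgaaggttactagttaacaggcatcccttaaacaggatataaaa
Afm, chr5:90518699-90518948, +: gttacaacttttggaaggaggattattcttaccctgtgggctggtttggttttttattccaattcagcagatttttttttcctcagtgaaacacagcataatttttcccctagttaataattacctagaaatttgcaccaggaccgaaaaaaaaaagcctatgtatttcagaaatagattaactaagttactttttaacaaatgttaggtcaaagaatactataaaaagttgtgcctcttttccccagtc

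The C/EBP-type and the FOXA-type motif each occurred in the Alb and the Afp window, and neither occurred in the Afm window. Of 32851 mouse promoter windows of this length, 9.56% held the C/EBP-type and 17.8% the FOXA-type motif. The CCAAT box letters (CCAAT) were present in the windows of Alb, Afp and Afm, as in 33.8% of all windows. TATAAA was found in Afp and Afm, and in 12.4% of all windows. All motifs were searched on both strands, none of these matches overlapped another, and a match is a description of letters, not of a bound site.

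Alb was high in every hepatocyte array and in 1 of the 3 iHep lines. Its only probe set, 1425260_PM_at, had a log2 signal of 3.80 in 4a3CK, 4.01 in 4a1CK and 9.30 in 4a3. The hepatocyte arrays had 11.94, 11.87 and 11.90, and the fibroblast arrays 4.12 and 4.01. Thus 4a3 stood apart from both lines made with c-Myc and Klf4, which lay beside the fibroblasts, and no iHep line reached the hepatocyte range.

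The mean Alb signal was 11.90 ± 0.04 in hepatocytes (SD, n = 3) and 4.07 ± 0.08 in fibroblasts (SD, n = 2), a difference of 7.84 on the log2 scale, or 229-fold. The 4a3 line was 2.60 below the hepatocyte mean, which made hepatocytes 6.06-fold brighter than 4a3, and 5.24 above the fibroblast mean, or 37.7-fold. In order of level, hepatocytes came first, then 4a3, and after a wide gap the fibroblasts, 4a1CK and 4a3CK. The 4a1CK value was 0.06 below the fibroblast mean, within the fibroblast spread, while 4a3CK was 0.26 below it. Against 4a3, the difference was −5.50 in 4a3CK and −5.29 in 4a1CK.

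Afp, too, was highest in hepatocytes, next in 4a3, and low in fibroblasts and both lines made with c-Myc and Klf4. Probe set 1416645_PM_a_at, the brightest of the 5 and the one that stands for the gene, had 2.86 in 4a3CK, 2.85 in 4a1CK and 8.96 in 4a3. It had 10.21, 10.16 and 9.92 in the hepatocyte arrays and 3.05 and 3.22 in the fibroblast arrays. The cultured hepatocytes were from adult mice, and they gave the highest Afp signals of all 8 arrays.

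The mean Afp signal was 10.10 ± 0.15 in hepatocytes (SD, n = 3) and 3.13 ± 0.12 in fibroblasts (SD, n = 2), a difference of 6.96, or 125-fold. The 4a3 line was 1.14 below the hepatocyte mean, so that hepatocytes were 2.20-fold brighter, and 5.83 above the fibroblast mean, or 56.7-fold. The lines 4a3CK and 4a1CK were 0.27 and 0.29 below the fibroblast mean. Against 4a3 they differed by −6.10 and −6.11. On a scale where the fibroblast mean is 0% and the hepatocyte mean 100% of the log2 distance, 4a3 stood at 66.8% for Alb and at 83.7% for Afp.

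**Figure D1:**
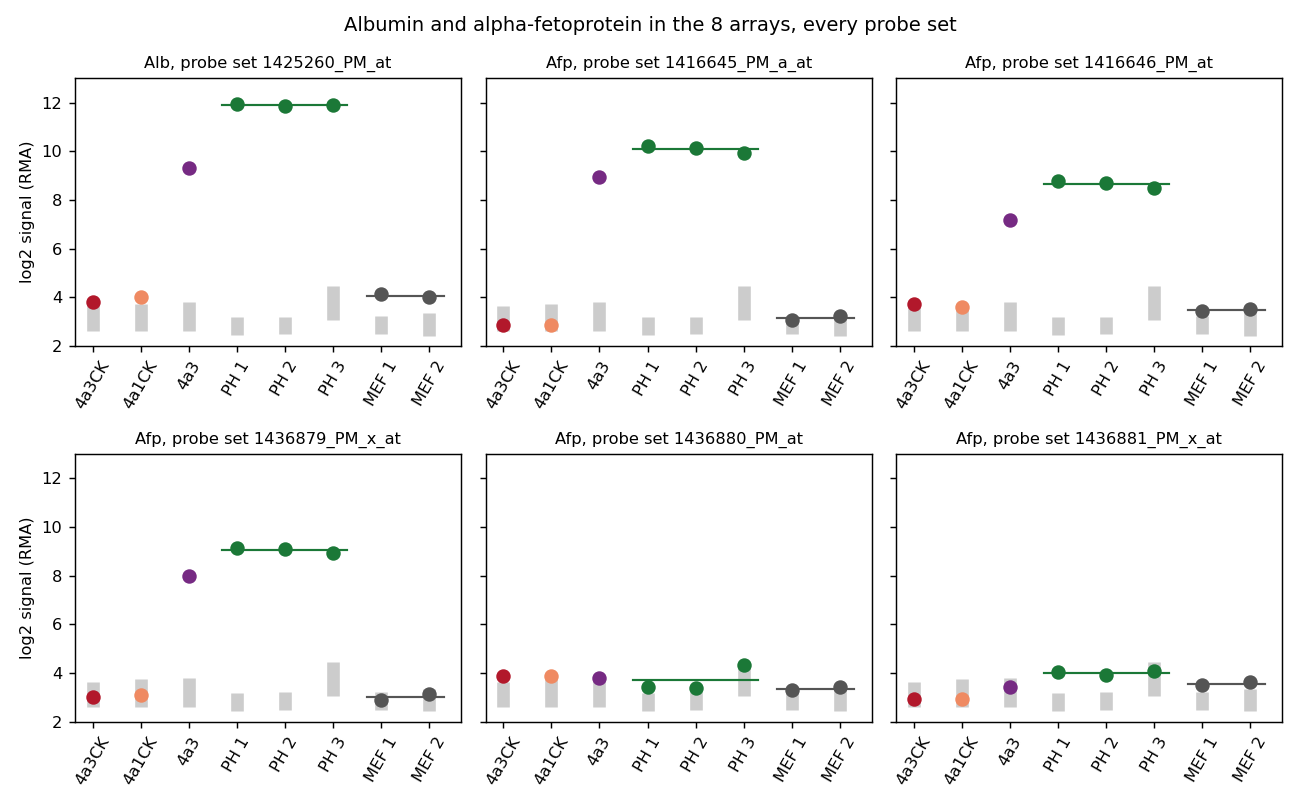
Log2 signal of the 6 probe sets of Alb and Afp on each array (4a3CK, 4a1CK, 4a3, PH 1 to 3, MEF 1 and 2). Grey bars run from the lowest to the second-highest of 23 nonspecific control probe sets of that array, and horizontal lines mark the PH and MEF means. Alb and 3 Afp probe sets are high in 4a3 and PH; the other 2 Afp probe sets stay below 4.5 on all arrays.

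The 5 Afp probe sets did not all read alike. Probe set 1416646_PM_at gave 3.72, 3.60 and 7.19 in 4a3CK, 4a1CK and 4a3, then 8.80, 8.70 and 8.48 in hepatocytes and 3.43 and 3.53 in fibroblasts. Probe set 1436879_PM_x_at gave 3.01, 3.08 and 8.00 in those lines, 9.12, 9.12 and 8.95 in hepatocytes and 2.88 and 3.13 in fibroblasts. Both again had hepatocytes highest and 4a3 next, with both lines made with c-Myc and Klf4 slightly above the fibroblast mean here and not below it, and placed 4a3 at 71.6% and 82.4% of the way from fibroblasts to hepatocytes.

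The remaining Afp probe sets were dim throughout. Probe set 1436880_PM_at had 3.88 in 4a3CK, 3.88 in 4a1CK and 3.81 in 4a3, then 3.43, 3.40 and 4.33 in hepatocytes and 3.28 and 3.44 in fibroblasts. Probe set 1436881_PM_x_at had 2.92, 2.91 and 3.44 in those lines, 4.03, 3.94 and 4.07 in hepatocytes and 3.50 and 3.63 in fibroblasts. Their hepatocyte means lay 0.36 and 0.45 above the fibroblast means, and the first of them did not separate the groups. Over the 8 arrays Alb correlated with the other Afp probe sets at r = 0.993, 0.998 and 0.994, and with this dim pair at 0.16 and 0.81; the arrays share their groups, so r only describes the common shape.

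Array-wide level moved the distances between arrays but not the order of hepatocytes, 4a3 and the rest. The PH 3 array was brighter than the mean of PH 1 and PH 2 for 93.2% of genes, with a median of 5.06 over all probe sets against 4.23 and 4.24, and its second-highest nonspecific control was at 4.47 against 3.19 and 3.20. With each array's median taken off, Alb was −0.60, −0.42 and 4.86 in 4a3CK, 4a1CK and 4a3, 7.71, 7.64 and 6.84 in hepatocytes, and −0.12 and −0.22 in fibroblasts. Afp, on the same scale, was −1.54, −1.58 and 4.51 in the lines, 5.98, 5.92 and 4.86 in hepatocytes, and −1.19 and −1.01 in fibroblasts. On this scale PH 3 lay below the other hepatocyte arrays for both genes, and for Afp the distance of 4a3 from PH 3 was then smaller than that between PH 3 and the other hepatocyte arrays.

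In fibroblasts, 4a3CK and 4a1CK the Afp signal lay within the range of most nonspecific controls of the same array, and the Alb signal between the second-highest and the highest of them. Whether these low signals exceed the background of their own probes is not known, and the folds against them depend on it. In bulk RNA, fewer cells that make a transcript and less of it per cell cannot be told apart, which holds for 4a3 in particular. The labels name no batch, but by order of accession the arrays form 2 sets, taken here only as a possible batch: the 3 lines, MEF 2 and PH 3 in the first, and MEF 1, PH 1 and PH 2 in the second. Within the first set hepatocytes exceeded fibroblasts by 7.88 for Alb and 6.71 for Afp, and within the second by 7.79 and 7.13. Against PH 3 alone, 4a3 was lower by 2.59 for Alb and by 0.96 for Afp.

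Marker lists were used to check the labelled cell types. The summed linear signal of 9 of 10 hepatocyte markers was 5198 to 7627 in the lines, 16340 to 23177 in hepatocytes and 157 to 248 in fibroblasts. That of 10 fibroblast markers was 191 to 634 in the lines, 277 to 369 in hepatocytes and 8041 to 15585 in fibroblasts. In 4a1CK the hepatocyte marker sum came almost all from Krt8 and Krt18, at log2 11.22 and 11.39. These are keratins that epithelial cells in general express, and the other 7 hepatocyte markers lay at 3.06 to 5.00. Signals above log2 5 were seen for 5 hepatocyte markers in 4a3CK, 2 in 4a1CK and 7 in 4a3, against 8 or 9 in hepatocytes. Because Afp is also a yolk sac gene, 6 yolk sac and gut markers were summed: 5108 in 4a3CK, 607 in 4a1CK and 1772 in 4a3, against 104 to 188 in hepatocytes and 89 to 98 in fibroblasts. Among the lines this sum was highest in 4a3CK, where Afp was at the fibroblast level. There it came mainly from Tff3, Gkn1 and Cdx2, at log2 11.54, 10.58 and 9.01. In 4a1CK it came mainly from Vil1 at 8.99, and in 4a3 from Tff3 at 10.64. Rhox5 had 3.69, 3.80 and 3.98 in 4a3CK, 4a1CK and 4a3, against 3.87 and 4.23 in fibroblasts. The sum does not separate yolk sac from gut genes, and its part in the Afp levels was not tested. The sums of 8 macrophage markers were 231 to 642 in the lines, 737 to 1373 in hepatocytes and 645 to 911 in fibroblasts. Those of 6 of 7 bile duct markers were 1270 to 2231, 574 to 805 and 229 to 261, in the same order of groups. Those of 6 endothelial markers were 133 to 140, 109 to 205 and 100 to 137. The bile duct sums of the lines came mainly from Krt19, at log2 10.85 in 4a3CK, 10.70 in 4a1CK and 10.05 in 4a3. The median bile duct marker differed between lines and fibroblasts by 0.16, as did the median of all genes. The macrophage sums came mainly from Cd14 in hepatocytes, at log2 9.75, 10.29 and 9.10, and in 4a3CK, at 9.06. In fibroblasts they came mainly from Lyz2, at 8.54 and 9.28, which was at 4.97, 4.26 and 4.97 in hepatocytes. These sums therefore do not rank the groups by macrophage content. RMA signals have no zero, so no marker can be called absent.

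Of the rest of the family, only afamin was measured as a listed member. At its brighter probe set Afm had 4.60, 4.63 and 5.10 in 4a3CK, 4a1CK and 4a3, then 5.56, 5.45 and 6.05 in hepatocytes and 4.37 and 4.05 in fibroblasts. It was higher in hepatocytes than in fibroblasts by 1.48 ± 0.28 (SE; limma, adjusted p = 0.0167), but the call was lost without MEF 1 (adjusted p = 0.0698) or without MEF 2 (adjusted p = 0.146). A gene passed where limma's Benjamini-Hochberg adjusted p over all 17097 genes was under 0.05 and the log2 difference at least 1; in hepatocytes against fibroblasts 3.37% of all genes passed as higher and 2.47% as lower. The lines taken as 1 group differed from fibroblasts by 0.57 ± 0.28 (SE; limma, adjusted p = 0.299), and 4a3 had the highest Afm value of the lines. The other Afm probe set, 1427561_PM_a_at, had 3.85, 4.01 and 4.07 in 4a3CK, 4a1CK and 4a3, below the 4.33 and 4.27 of fibroblasts. Hepatocytes had 4.86, 4.87 and 4.89 there. Averaged over its probe sets, Afm in the lines exceeded fibroblasts by 0.12.

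None of the genes around Alb and Afp was raised in hepatocytes and 4a3 to a like degree. Afm had hepatocytes highest and 4a3 next at its brighter probe set, though not at its other one. There 4a3 stood at 60.5% of a much smaller distance from fibroblasts to hepatocytes, at the brighter probe set. Of 18 genes annotated within 300 kb of Alb, Afp and Afm, 10 others were on the array. Besides Afm, 1 of these 10 passed between hepatocytes and fibroblasts: Ppbp, a platelet chemokine, was lower by 2.94 ± 0.39 (SE; limma, adjusted p = 0.00279). In the lines against fibroblasts, where 1.98% of all genes passed as higher and 4.47% as lower, 2 of 10 passed: Ppbp was lower by 3.20 ± 0.39 and Cox18, a mitochondrial assembly factor, by 1.41 ± 0.29 (SE; limma, adjusted p = 0.00231 and 0.0246). Albfm1, the family member next to Afm, stayed between 3.30 and 3.85 on all 8 arrays. This neighbour list was drawn up after the values had been seen.

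**Figure D2:**
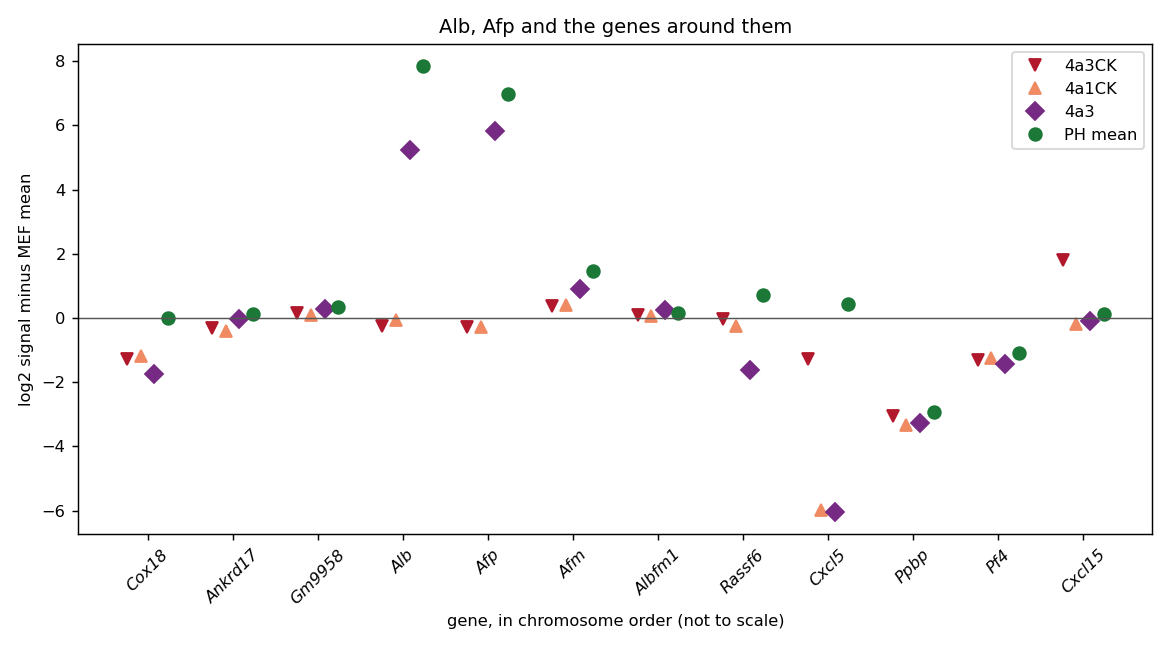
Log2 signal minus the MEF mean for Alb, Afp and the 10 other array genes around them, placed in chromosome order and not to scale; markers are 4a3CK, 4a1CK, 4a3 and the PH mean. Each gene is shown by its brightest probe set. Alb and Afp stand at 5.24 and 5.83 in 4a3 and at 7.84 and 6.96 in PH. Afm stands at 0.89 in 4a3 and 1.48 in PH, and its other probe set is not shown.

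The factors that drive Alb and Afp in liver were in good part higher in hepatocytes than in fibroblasts and lower in the lines than in hepatocytes. Of 19 measured activators, 10 were higher in hepatocytes than in fibroblasts, against 3.37% of all genes, and the other 9 did not pass. The list median was 2.10, against 0.25 for all genes. With array medians taken off 8 passed as higher, and with only the compared groups in the fit 11 did. Between lines and hepatocytes, 11 of 19 were lower in the lines, with a median of −1.91 against −0.09 for all genes. In that comparison 1.49% of all genes passed as higher and 5.64% as lower. With PH 1 and PH 2 averaged, 9 of 19 were lower in the lines. In the lines against fibroblasts Gata6 was higher by 1.85 ± 0.37, Nfib was lower by 1.95 ± 0.40 (SE; limma, adjusted p = 0.0235 for each) and 17 did not pass. Both of these last calls were lost without 4a1CK or without MEF 1, and that of Nfib also without MEF 2, with the accession set as a block and with only the compared groups in the fit (limma, adjusted p = 0.0503 to 0.185).

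The FOXA pioneer factors open liver enhancers, those of Alb and Afp included. Foxa1 had 3.87, 4.01 and 4.19 in 4a3CK, 4a1CK and 4a3, against 7.35, 7.18 and 9.47 in hepatocytes, with 3.71 and 3.63 in fibroblasts. Foxa3 had 3.99, 3.92 and 3.94 in the lines, against 6.17, 6.44 and 6.59 in hepatocytes, with 3.71 and 3.62 in fibroblasts. Neither the Foxa1 signal of 4a1CK nor the Foxa3 signal of 4a3CK and 4a3 stood out, although these lines are labelled as transduced with them; whether the probe sets read the retroviral transcripts was not tested. In hepatocytes against fibroblasts Foxa1 was higher by 4.33 ± 0.60, Foxa2 by 3.28 ± 0.33 and Foxa3 by 2.73 ± 0.22 (SE; limma, adjusted p = 0.00352, 0.000638 and 0.000186). They were lower in the lines than in hepatocytes by 3.98, 2.57 and 2.45.

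HNF4A is a nuclear receptor that acts high in the hepatocyte network, and all of the lines are labelled as transduced with Hnf4a. Its signal was 9.59 in 4a3CK, 5.50 in 4a1CK and 6.04 in 4a3, then 9.54, 9.48 and 9.78 in hepatocytes and 5.65 and 5.62 in fibroblasts. So the Hnf4a signal of 4a3CK reached the hepatocyte level with Alb and Afp at the fibroblast level, while 4a3, with high Alb and Afp, was 0.40 above the fibroblast mean. Whether the Hnf4a probe sets read the retroviral transcript was not tested. Hepatocytes exceeded fibroblasts in Hnf4a by 3.97 ± 1.01 without passing (SE; limma, adjusted p = 0.0585). The SD of its signal was 2.22 over the lines, 0.155 in hepatocytes and 0.02 in fibroblasts, and this SE draws on all of them. The further probe sets, 1427000_PM_at and 1421983_PM_s_at, likewise put 4a3CK above the other lines, at 8.39 and 5.62. The fourth, 1450447_PM_at, was dim and did not, with 4.41 in 4a3CK, 4.62 in 4a1CK and 4.52 in 4a3.

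Several other activators were low in every line and high in hepatocytes. Hhex, a homeobox gene needed for the liver bud, had 5.49, 4.71 and 5.09 in 4a3CK, 4a1CK and 4a3, against 10.15, 10.06 and 10.03 in hepatocytes, with 4.35 and 4.44 in fibroblasts. Onecut1 and Nr5a2, which code for HNF6 and for the LRH-1 receptor, an activator of Afp, were higher in hepatocytes than in fibroblasts by 3.17 ± 0.22 and 2.79 ± 0.21 (SE; limma, adjusted p = 0.000101 and 0.000161). Cebpa, an activator of the Alb promoter, was higher by 2.18 ± 0.27 (SE; limma, adjusted p = 0.00202). The lines were lower than hepatocytes by 4.98, 2.75, 2.60 and 1.57, in the order Hhex, Onecut1, Nr5a2 and Cebpa.

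The activators were also compared between the lines. A log2 difference of −2 or lower against 4a3 in both 4a3CK and 4a1CK was met by 30 genes, or 0.175% of all. Alb and Afp, which were chosen by their levels, were among them. No activator was, which at so small a share says little about a list of 19. In 4a3CK alone 1 activator met the limit of −2, as did 0.871% of all genes. This was Cebpb, which codes for another C/EBP protein, at 6.79 there, against 11.02 in 4a3 and 10.93 in 4a1CK. Prox1, a homeobox gene of hepatoblasts, was the activator closest to the Alb pattern, with 3.46, 3.14 and 4.67 in 4a3CK, 4a1CK and 4a3. It had 5.49, 5.68 and 7.05 in hepatocytes and 2.95 and 3.19 in fibroblasts. Prox1 averaged 6.08 ± 0.85 in hepatocytes (SD, n = 3) and 3.07 ± 0.17 in fibroblasts (SD, n = 2) and passed (limma, adjusted p = 0.015), but its adjusted p in limma was 0.108 once MEF 1 was left out and 0.0763 once MEF 2 was.

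**Figure D3:**
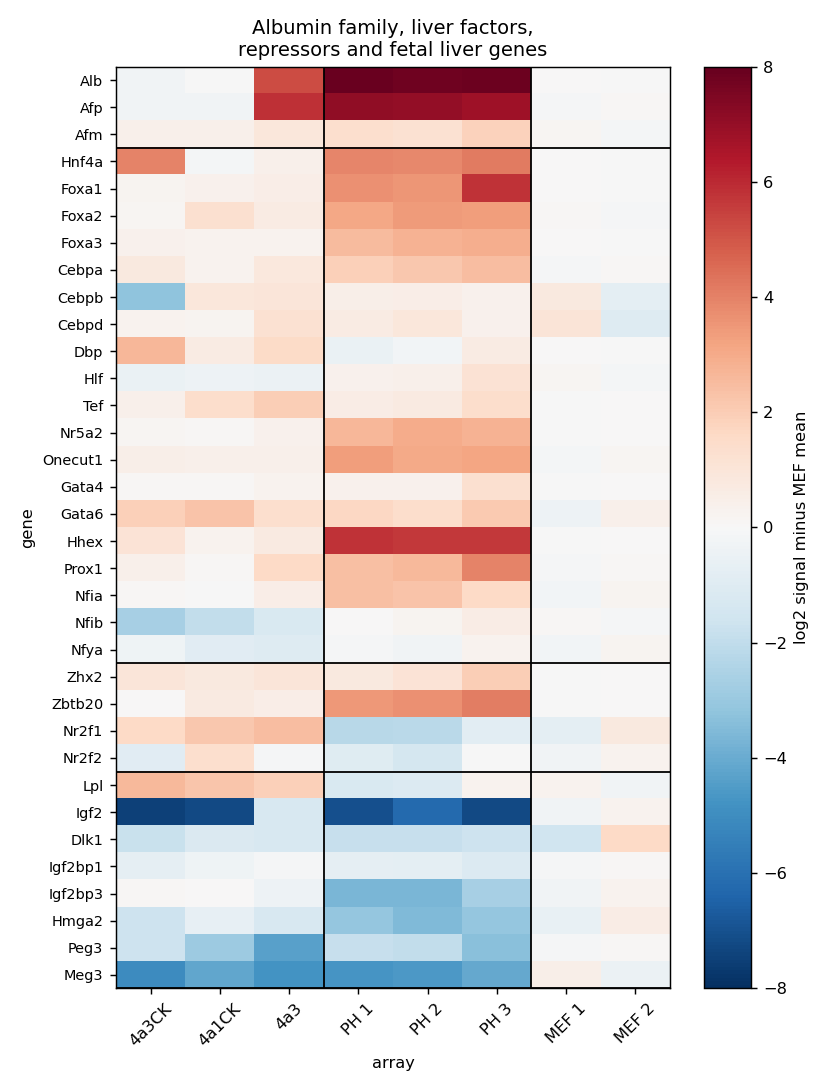
Heat map of log2 signal minus the MEF mean (colour, from −8 to 8) for the albumin family, activators, repressors and fetal liver genes in rows and the 8 arrays in columns, lines first, then PH and MEF. The Alb and Afp rows are red in 4a3 and PH, the Hnf4a row in 4a3CK and PH, and the Igf2 row is near white in 4a3 and MEF.

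The repressors of Afp were read beside it. Zbtb20, whose protein silences Afp in the mouse liver after birth, had 4.69, 5.40 and 5.18 in 4a3CK, 4a1CK and 4a3, against 8.15, 8.33 and 8.73 in hepatocytes, with 4.60 and 4.69 in fibroblasts. It was higher in hepatocytes than in fibroblasts by 3.76 ± 0.29 and lower in the lines than in hepatocytes by 3.32 ± 0.26 (SE; limma, adjusted p = 0.000155 and 0.000199). The cultured hepatocytes thus had the highest signals of both Afp and Zbtb20. Zhx2 had 5.34, 5.14 and 5.32 in the lines, 5.19, 5.45 and 6.37 in hepatocytes and 4.37 and 4.39 in fibroblasts, and no comparison of it passed.

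The COUP-TF receptors, which compete with HNF4A for its sites, made up the rest of this list. Nr2f1 had 6.87, 7.39 and 7.72 in 4a3CK, 4a1CK and 4a3, against 3.03, 3.07 and 4.43 in hepatocytes, with 4.49 and 6.02 in fibroblasts. It was higher in the lines than in hepatocytes by 3.82 ± 0.50 (SE; limma, adjusted p = 0.00317). Nr2f2 did not pass in any comparison. Of the 4 measured repressors, 1 passed as higher in hepatocytes than in fibroblasts, as did 3.37% of all genes. None differed by 2 or more between both c-Myc and Klf4 lines and 4a3. Only 0.175% of all genes were lower by that much in both, so 0 of 4 says little about this list.

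Fetal liver genes other than Afp were not hepatocyte-high. Of 8 measured, 4 were lower in hepatocytes than in fibroblasts, against 2.47% of all genes, and the median was −2.81. The RNA-binding protein gene Igf2bp3 was lower by 3.34 ± 0.37, the chromatin gene Hmga2 by 3.23 ± 0.42 and the imprinted RNA gene Meg3 by 4.45 ± 0.38 (SE; limma, adjusted p = 0.00105, 0.00245 and 0.000246). The lines exceeded hepatocytes in 3 of 8, against 1.49% of all genes: Igf2bp3 by 3.23, Lpl by 2.89 and Hmga2 by 2.03. The Hmga2 call did not pass without PH 2, with PH 1 and PH 2 averaged or with the accession set as a block (limma, adjusted p = 0.0525 to 0.0627).

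Igf2, the fetal growth factor gene, shared part of the Afp pattern. It had 4.20 in 4a3CK, 4.44 in 4a1CK and 10.34 in 4a3, then 4.59, 5.42 and 4.45 in hepatocytes and 11.37 and 11.93 in fibroblasts. Like Afp it was high in 4a3 and low in the other lines, but hepatocytes were low and fibroblasts high. It was the only 1 of the 8 to be lower by 2 or more in both lines against 4a3. Its lower level in hepatocytes than in fibroblasts, by 6.82 ± 1.58 (SE; limma, adjusted p = 0.0405), did not pass when any single hepatocyte or fibroblast array was left out or under 5 other alternatives, both rescalings among them (limma, adjusted p = 0.0529 to 0.196).

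Most other plasma proteins were high in hepatocytes, where 3.37% of all genes passed as higher than in fibroblasts. A minority of these proteins shared the split of Alb and Afp between the lines. Of 38 measured, 26 were higher in hepatocytes than in fibroblasts, and the median was 4.61; leaving out an array of those groups brought the count to 13 without MEF 1, 14 without MEF 2 and 17 without PH 3. Ambp, the precursor of a proteinase inhibitor, was higher by 7.77 ± 0.26, and Fga, a fibrinogen chain, by 7.48 ± 0.32 (SE; limma, adjusted p = 3.66e-06 and 1.3e-05). The largest difference was that of Fgb, another fibrinogen chain, whose SD was 4.78 over the lines, 0.14 in hepatocytes and 0.06 in fibroblasts. It came to 8.95 ± 2.13 (SE; limma, adjusted p = 0.0464). That call was lost when any single hepatocyte or fibroblast array was left out and under 5 other alternatives, both rescalings among them (limma, adjusted p = 0.0587 to 0.206). In the lines against hepatocytes 18 of 38 were lower, against 5.64% of all genes, and 11 without PH 1. Ambp, Fga and vitronectin (Vtn) were at −7.85, −6.83 and −6.54.

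In the lines against fibroblasts 2 of 38 plasma proteins were higher, as were 1.98% of all genes. Apoa1, whose product carries cholesterol as high-density lipoprotein, had 12.66, 10.39 and 12.82 in 4a3CK, 4a1CK and 4a3, against 5.30 and 4.29 in fibroblasts, a difference of 7.16 ± 0.72 (SE; limma, adjusted p = 0.000928). Rbp4, the retinol carrier, was higher by 5.02 ± 0.93 (SE; limma, adjusted p = 0.0168). The Rbp4 call was lost without MEF 1 or MEF 2, under that block and with only those groups in the fit (limma, adjusted p = 0.0554 to 0.102). The count was 4 without 4a3CK, 8 without 4a1CK and 1 without MEF 2. The Apoa1 signal was thus high in both lines in which Alb was at the fibroblast level.

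Against 4a3, 7 of 38 plasma proteins were lower by 2 or more in 4a3CK and 12 of 38 in 4a1CK, where 0.684% of all genes met it; 5 of 38 met it in both, against 0.175% of all genes. These 5 were Fgg, Rbp4, Hp, Serpina1a and Fetub, and they are named because they are few. Fgg, the third fibrinogen chain, had 3.54, 3.46 and 8.47 in 4a3CK, 4a1CK and 4a3, then 10.10, 9.79 and 10.92 in hepatocytes and 3.40 and 3.33 in fibroblasts. Fgb, by contrast, was at 10.92 in 4a3CK, 3.36 in 4a1CK and 12.21 in 4a3. The α1-antitrypsin gene Serpina1a was at 7.38, 3.06 and 9.63 in those lines.

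**Figure D4:**
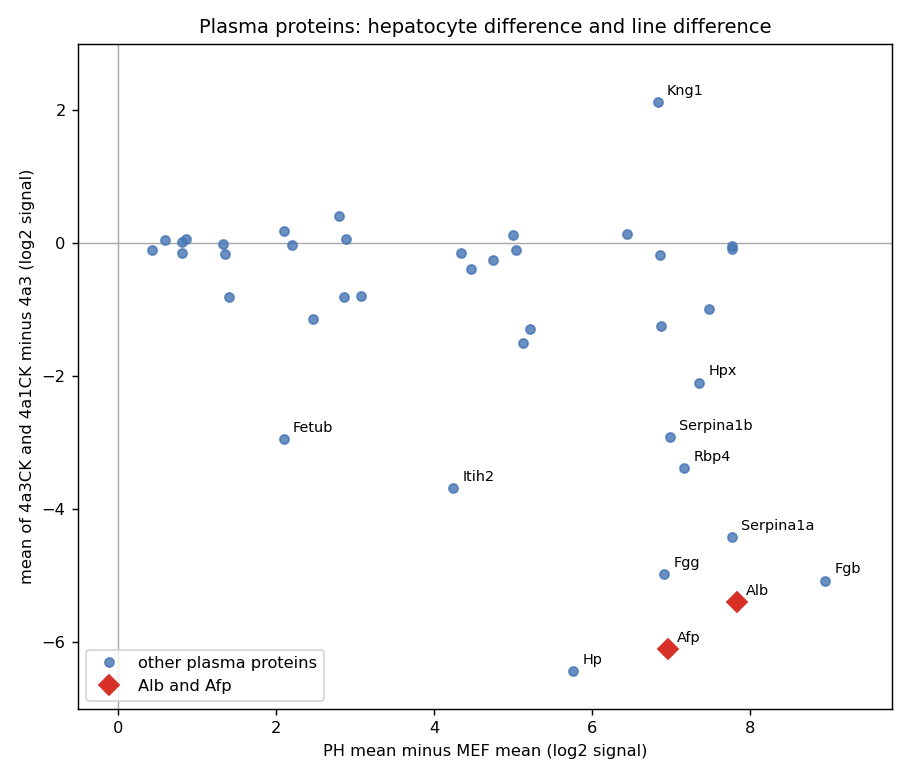
Each point is 1 plasma protein gene; the x axis is the PH mean minus the MEF mean and the y axis the mean of 4a3CK and 4a1CK minus 4a3, both in log2 signal, and red diamonds are Alb (7.84, −5.40) and Afp (6.96, −6.11). Genes that differ by more than 2 on the y axis are named, and most lie near 0 on it. A value near 0 can average lines that differ from 4a3 in opposite directions. Trf, at −0.08, differed from 4a3 by 3.47 in 4a3CK and by −3.63 in 4a1CK.

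The place of each line between fibroblasts and hepatocytes was also set beside these proteins. Over the 26 that were higher in hepatocytes, the median place was 17.3% in 4a3CK, 4.10% in 4a1CK and 20.7% in 4a3. In 4a3, where Alb stood at 66.8% and Afp at 83.7%, 7 of the 26 lay above Alb and 5 above Afp. In 4a3CK, where Alb stood at −3.37% and Afp at −3.95%, 6 of the 26 lay above 50%, and in 4a1CK 4 did. These 26 passed through their hepatocyte level, so the places only describe them.

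Of all genes, those most like Alb over the 8 arrays were Fgg (Pearson r = 0.994) and Afp (0.993), followed by Aox1 (0.950), Ttr (0.944), Prox1 (0.941), Fam124a (0.937), Sorbs2 (0.936) and Fga (0.933). They were ranked among 1460 genes whose signal ranged over at least 3 log2 units. Those most like Afp were Alb (0.993), Fgg (0.990), Serpina1a (0.922), Aox1 (0.920), Prox1 (0.917), Fetub (0.915), Hpx (0.910) and Serpina1c (0.907). Fgg, Aox1 and Prox1 were on both lists. The place of 4a3 between fibroblasts and hepatocytes varied widely among them, from 17.5% for Fga and 22.8% for the thyroxine carrier gene Ttr through 74.0% for Fgg and 82.6% for Serpina1a to 153% for Fetub.

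A stricter pattern was set after the values had been seen: every hepatocyte array at least 2 above both fibroblast arrays, and both 4a3CK and 4a1CK at least 2 below 4a3 and within 1 of the fibroblast mean. It was met by 3 genes, 0.0175% of all, which were Alb, Afp and Fgg. The call of Fgg between hepatocytes and fibroblasts, 6.91 ± 1.32 (SE; limma, adjusted p = 0.0166), did not pass without MEF 1, MEF 2, PH 1 or PH 3 (adjusted p = 0.0513 to 0.0974).

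Genes for the uptake and recycling of albumin did not follow it. Of 8 measured, 3 were lower in hepatocytes than in fibroblasts, against 2.47% of all genes. Sparc, an albumin-binding matrix protein, was lower by 3.79 ± 0.78 (SE, with limma adjusted p = 0.0243). The caveolar coat gene Cav1 was lower by 3.75 ± 0.65 and the endocytic adaptor Dab2 by 2.41 ± 0.48 (SE, with limma adjusted p = 0.0109 and 0.0217). None of these calls held without MEF 2 or without PH 3. In the lines Cav1 was higher than in hepatocytes by 4.14 ± 0.58 (SE; limma, adjusted p = 0.00449), with 11.75, 11.49 and 9.69 in 4a3CK, 4a1CK and 4a3, against 7.16, 7.37 and 5.99 in hepatocytes. Fcgrt, which codes for the receptor that returns albumin to the blood, had 5.25, 5.10 and 5.07 in the lines, 6.63, 6.65 and 7.16 in hepatocytes and 7.51 and 5.56 in fibroblasts, and no comparison of it passed.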

How the data were processed

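The authors deposited 1 log2 signal for each probe set and array, made with RMA in Partek, per the submitters' processing notes, which as used here name no version or setting. The table holds 45141 probe sets on 8 arrays. After 104 controls, 28898 probe sets carried 1 gene symbol in GEO's platform annotation, 551 several and 15588 none; only the first were named, giving 17097 genes, each read from whichever of its probe sets was brightest on average. The precision is limited by the number of arrays.

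Groups (3 lines, 3 hepatocyte and 2 fibroblast arrays) were compared in 1 limma fit (version 3.58.1, R 4.3.3) with Benjamini-Hochberg adjustment over all genes, tested on simulated data. Lines of 1 array were compared by differences only, with a log2 difference of 2 as the limit. Promoters and gene order came from RefSeq tables of GRCm38.p6.

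Alb, Afp and the gene lists were chosen with earlier results of these data known. Members of the family, activator, repressor and fetal lists could be named, up to 5 per comparison of the plasma and uptake lists, and the 8 genes most like Alb or Afp. Listed genes with no probe set of a single symbol (among them Gc, Gpc3 and H19) were not analysed here. Alternatives changed the probe set, filter, normalisation, variance model, groups, blocks and arrays. PH 1, PH 2, MEF 1 and MEF 2 share replicate numbers, but same-numbered arrays did not deviate together (correlation −0.197 across 17097 genes), so the numbers were not taken as pairs.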

Additional observations from a re-analysis of the deposited data

How the results depend on the processing

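Alb and Afp had hepatocytes highest and 4a3 next under both rescalings, but not at every probe set. For Alb, hepatocytes minus fibroblasts was 7.73 after quantile normalisation and 7.56 with array medians taken off (7.78 to 7.89 leaving out 1 array each), and 4a3 minus hepatocytes was −2.56 and −2.54 (−2.62 to −2.58). The c-Myc and Klf4 lines minus 4a3 gave −5.51 after quantile normalisation, −5.37 with array medians taken off, and −5.50 to −5.29 leaving out a line. For Afp, hepatocytes minus fibroblasts was 5.18, 6.06, 0.36 and 0.45 at the other 4 probe sets, 3.80 over all, 6.75 and 6.69 under those scalings, 6.71 and 7.13 within the first and second set by accession, and 6.88 to 7.05 leaving out arrays. The c-Myc and Klf4 lines minus 4a3 was −3.52, −4.95, 0.066 and −0.52 at those probe sets, −3.01 over all, −6.23 and −6.08 when rescaled, and −6.11 to −6.10 leaving out a line. The 4a3 line minus hepatocytes was −1.47, 0.091 and −0.58 at 1416646_PM_at, 1436880_PM_at and 1436881_PM_x_at, −0.83 over all, −0.96 when quantile normalised and within the first set, and −1.23 to −1.08 leaving out arrays. The reversed values, 0.066 and 0.091, are those of the dim probe set 1436880_PM_at. Hepatocytes against fibroblasts gave 1000 genes (577 higher, 423 lower), with 519 and 609 after quantile normalisation, 473 and 664 with medians taken off, and 575 to 1156 leaving out arrays, lowest without MEF 1 and 612 without MEF 2. The lines against fibroblasts gave 1103 (339 and 764), with 187 and 847 with that set as a block, and 471 to 1874, from without MEF 1 to without PH 3. The lines against hepatocytes gave 1219 (254 and 965), with 526 and 800 after quantile normalisation, 465 and 816 with medians taken off, 108 and 1198 with the set as a block, 588 with PH 1 and PH 2 averaged, and 576 to 1806, from without PH 1 to without PH 3. Of 78 listed genes, 45, 8 and 35 passed in these comparisons, and 26 to 47, 4 to 11 and 26 to 32 leaving out arrays; for the lines against fibroblasts it was 5 with only those groups in the fit and 4 with the set as a block. Gene by gene, 3833 of 4161 alternative values stayed as in the main fit, whether passed or not passed. A call was lost in 239 and gained in 89, and 0 of the called ones turned direction. The 3833 include genes that passed in neither fit, and the causes were not tested. With PH 1, PH 2, MEF 1 and MEF 2 only, the replicate block gave 900 genes (454 and 446), against 1475 with no replicate block (736 and 739). A crossed pairing, added after seeing the data, gave 1307. A single array for each line limits every value on 4a3.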

Other observations

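Among the 30 genes that were lower by 2 or more in both 4a3CK and 4a1CK against 4a3, Alb, Afp and Igf2 stood with Xist, the RNA that coats the inactive X chromosome; it is named after its values were seen. Xist had a log2 signal of 6.04 in 4a3CK, 5.91 in 4a1CK and 11.48 in 4a3, then 5.87, 5.82 and 6.50 in the hepatocytes of male mice and 8.11 and 9.43 in fibroblasts. Among the lines, 4a3, the line with high Alb and Afp, was thus also the line with high Xist. The difference rests on 1 array for each line and was not tested.

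The transduced factors besides Hnf4a, Foxa1 and Foxa3 did not set the lines labelled as carrying them apart from 4a3. Klf4 had 9.43 in 4a3CK, 9.56 in 4a1CK and 10.60 in 4a3, then 6.28, 6.30 and 7.50 in hepatocytes and 8.56 and 9.12 in fibroblasts. Myc had 9.38, 8.48 and 8.48 in the lines, 9.14, 8.95 and 9.72 in hepatocytes and 6.69 and 8.71 in fibroblasts. Whether these probe sets read retroviral transcripts was not tested.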
